A study of Homo sapiens with 12 samples.

Results

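The baseline transcriptome of the human myeloma cell line KMS11 was read from the control libraries of a study of the kinase STK17B. The series holds 12 KMS11 libraries in 6 groups of 2, of which 4 are controls and were pooled here: 2 from cells with a transduced control hairpin (shControl) and 2 from cells with a transduced control vector (Vector). Both groups are labelled as genotype WT with no treatment. The labels do not say whether the 2 libraries of a group came from separate cultures, so a spread given below may be technical. The other 8 libraries (hairpins against STK17B, an STK17B inhibitor and STK17B overexpression) were not used. The genes are described by their abundance, and no difference between the groups was tested; where a gene's libraries are said to be higher or lower in a pair, that describes the printed values. KMS11 is a single line, so the levels describe that line and not myeloma in general.

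Multiple myeloma is a cancer of plasma cells, the antibody-secreting end stage of the B cell lineage. A plasma cell switches off the B cell programme kept by PAX5, and switches on IRF4, PRDM1 and XBP1, which drive terminal differentiation and the growth of the secretory pathway. Myeloma cells commonly carry translocations that place immunoglobulin heavy chain enhancers beside an oncogene. KMS11 is known for a pair of them, which reach the neighbouring genes FGFR3 and NSD2 and, separately, MAF.

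Values are TPM, a relative unit in which a gene's signal is corrected for transcript length and each library is scaled to a sum of 1000000. TPM keeps no record of how many reads lay behind a value, so the depth of each library is unknown. A gene is named expressed where it reached 1 TPM in all 4 libraries and silent where it was below 0.1 TPM in all 4. Levels are given as mean ± SD over the 4 libraries (n = 4). RNA came from whole cultures, where fewer cells expressing a gene and less RNA per cell cannot be told apart.

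The Vector libraries stood apart from the shControl libraries. Over 11317 expressed genes the median absolute log2 difference was 0.06 between the 2 shControl libraries and 0.07 between the 2 Vector libraries, against 0.13 to 0.16 for the 4 pairs across the groups. Pearson's r of log2(TPM + 1), across genes and not across replicates, ran from 0.992 to 0.997. The columns were assigned to the groups by matching their numbers to the library numbers in the labels, which is an inference; a pooled value does not depend on it. Library values are printed below in the order shControl 1, shControl 2, Vector 1, Vector 2, and groups are said not to overlap where both libraries of a pair lie above both of the other. Such a gap was common: of the expressed genes, 5560 (49.1%) lay higher in both Vector libraries and 2424 (21.4%) lay lower in both, so a gap in a named gene does not set it apart. The median ratio of a library's genes to their geometric mean over the 4 libraries was 0.959, 0.972, 1.02 and 1.06 in that order. The typical gene thus read higher in Vector, and the printed TPM were not rescaled for it.

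The table listed 29607 genes. Of these, 11317 (38.2%) were expressed, 12975 (43.8%) were silent and 5315 (18.0%) lay between. In shControl 1, 16852 genes were above 0, in shControl 2 16689, in Vector 1 17137 and in Vector 2 17354, so both Vector libraries listed more genes than both shControl libraries. A level of 10 TPM was reached in all 4 libraries by 6776 genes, 100 TPM by 1296 and 1000 TPM by 144. Among 19126 protein-coding genes, 10447 (54.6%) were expressed and 5418 (28.3%) silent, and this class held 98.0% ± 0.304 of all TPM. The median gene stood at 0.152 TPM over the whole table and at 16.2 TPM among expressed genes. These are the background for the counts of gene lists below. For lists of protein-coding genes the shares of that class are the nearer comparison. Proteins encoded by the mitochondrial genome and most immunoglobulin genes were not analysed here, so ranks and shares hold among the listed genes.

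A small set of genes made up much of the TPM. The 100 most abundant genes held 41.1%, 40.9%, 40.9% and 40.7% of all TPM in the 4 libraries, and between 176 and 185 genes were enough to reach 50%. Ribosomal proteins dominated: 19 of the 25 most abundant genes and 66 of the 100 most abundant encode them. All 80 listed ribosomal protein genes were expressed, 79 of them at 100 TPM or more, with a median of 3214 TPM, and together they held 30.5% ± 0.392 of the total. Paralogues such as RPL3L, RPL10L, RPL39L and RPS4Y1 had been left out of that list, so the count does not cover every such gene.

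RPS27, a protein of the small ribosomal subunit, was the most abundant listed gene with 17032, 15975, 17220 and 17285 TPM. RPLP1, an acidic stalk protein of the large subunit, followed with 17306, 17340, 15754 and 15400 TPM. The 4 RPLP1 values do not overlap between the pairs, while those of RPS27 do.

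The other 6 genes among the first 25 encode proteins of antigen presentation, translation, glycolysis, the cytoskeleton and chromatin. B2M, the light chain of MHC class I, stood at 7222, 7246, 9760 and 9835 TPM, higher in both Vector libraries. CD74, the invariant chain that guides MHC class II, stood at 8475 ± 305 TPM. EEF1A1, which carries aminoacyl-tRNA to the ribosome, stood at 8092 ± 255 TPM. GAPDH, a glycolytic enzyme often used as a reference gene, read 8437, 8479, 7061 and 6948 TPM, lower in both Vector libraries. TMSB4X (6038 TPM), which binds actin monomers, and PTMA (5124 TPM), a small acidic nuclear protein, completed the set. B2M and GAPDH thus differed between the pairs in opposite directions.

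The first transcribed bases of these genes are shown because ribosomal protein and elongation factor mRNAs are known for a 5′ terminal oligopyrimidine (TOP) start, a C followed by an unbroken run of C and T through which their translation is controlled. Each line gives 20 bases before and 20 bases from the RefSeq start (GRCh38.p14), on the gene's strand. Capitals mark the unbroken C and T run that opens with a C at the first transcribed base; a line without capitals has no such C. The first 4 are the most abundant ribosomal protein genes with an entry in the RefSeq promoter table, and the last 4 the most abundant other genes.
RPS27 (chr1:153990742-153990781, plus strand): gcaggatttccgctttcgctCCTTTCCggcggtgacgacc
RPLP1 (chr15:69452798-69452837, plus strand): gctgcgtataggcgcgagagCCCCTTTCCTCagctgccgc
RPL41 (chr12:56116613-56116652, plus strand): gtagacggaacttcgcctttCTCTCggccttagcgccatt
RPL37A (chr2:216498824-216498863, plus strand): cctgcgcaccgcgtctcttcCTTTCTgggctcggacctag
B2M (chr15:44711497-44711536, plus strand): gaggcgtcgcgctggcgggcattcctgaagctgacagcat
CD74 (chr5:150412891-150412930, minus strand): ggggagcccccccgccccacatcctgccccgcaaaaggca
EEF1A1 (chr6:73521013-73521052, minus strand): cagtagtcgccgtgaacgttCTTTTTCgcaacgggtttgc
GAPDH (chr12:6535244-6535283, plus strand): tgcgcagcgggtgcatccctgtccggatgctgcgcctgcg

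The run was 7 bases long in RPS27, 11 in RPLP1, 5 in RPL41, 6 in RPL37A and 7 in EEF1A1. B2M, CD74 and GAPDH did not open with a C. Over all 15181 protein-coding genes matched to the promoter table, 710 (4.68%) opened with a C and at least 4 further C or T, searched on the gene's strand. The share was 43 of 63 (68.3%) among matched ribosomal protein genes and 12 of 75 (16.0%) among the other genes of at least 1000 TPM. It was 9.36% at 100 to 1000 TPM, 5.05% at 10 to 100, 4.06% for expressed genes under 10 TPM and 2.72% for silent genes. A match describes these letters at the annotated start and does not show that the mRNA is controlled through them.

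CpG content was similar across the expressed classes and lower in silent genes. The ratio of observed to expected CpG in the 300 bases around the start (250 before and 50 after) had a median of 0.889 at 1000 TPM or more, 0.872 at 100 to 1000, 0.869 at 10 to 100, 0.832 in expressed genes under 10 TPM and 0.340 in silent genes. A ratio above 0.6 was found in 90.9%, 89.6%, 89.0% and 81.7% of the expressed classes in that order and in 31.6% of silent genes, against 67.0% of all. The motif TATAAA, on either strand from 40 to 15 bases before the start, was in 4.12% of all promoters. It was in 7.58% at 1000 TPM or more, 3.09% at 100 to 1000, 1.08% at 10 to 100, 2.10% under 10 and 8.70% of silent genes, so it was most frequent at both ends of the range.

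**Figure D1:**
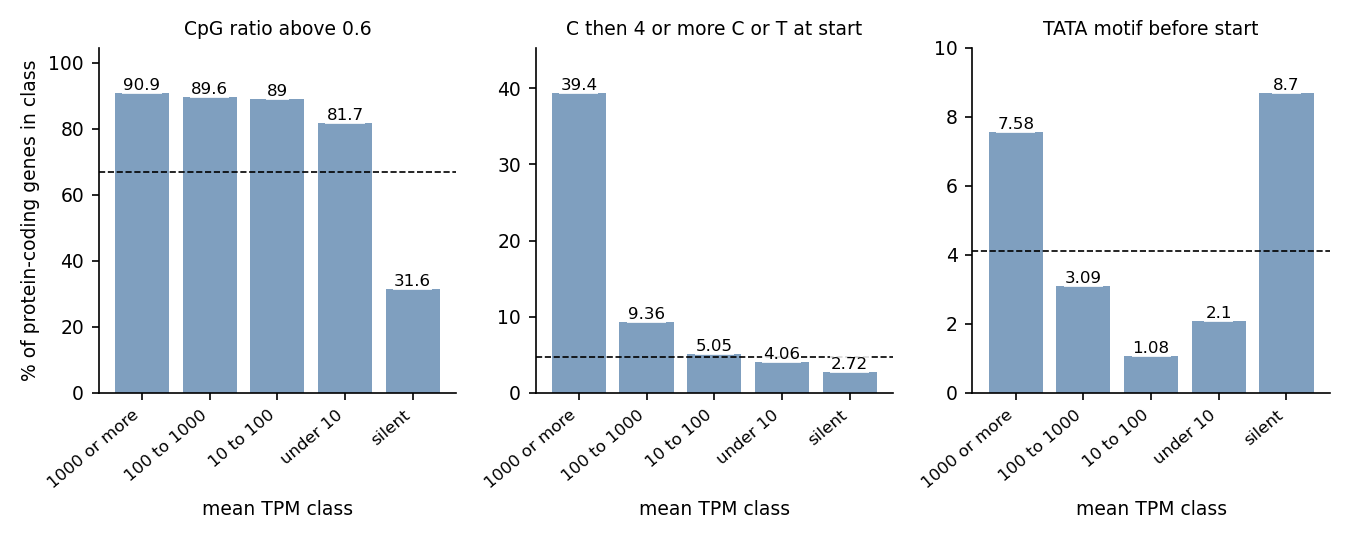
Percent of protein-coding genes (y axis) in 5 classes of mean TPM (x axis; the 4 numbered classes hold expressed genes) whose RefSeq promoter has a CpG ratio above 0.6 (left), a C then 4 or more C or T from the first transcribed base (middle) or TATAAA on either strand before it (right); the dashed line is the share of all 15181 matched genes. The middle panel falls from 39.4% in the most abundant class to 2.72% in silent genes.

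The 6 genes given as markers of the line were all expressed. SDC1 encodes syndecan-1 (CD138), the proteoglycan by which plasma cells are usually identified (ENSG00000115884.10; GRCh38, chromosome 2, 20200797 to 20225433, minus strand). It stood at 57.7, 59.4, 51.5 and 51.2 TPM, at rank 2397. TNFRSF17 encodes BCMA, the receptor through which APRIL and BAFF keep plasma cells alive (ENSG00000048462.10; chromosome 16, 11965107 to 11968068, plus strand). It read 299, 296, 237 and 234 TPM, at rank 512. Both surface markers were higher in the 2 shControl than in the 2 Vector libraries.

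IRF4, the transcription factor on which myeloma cells depend (ENSG00000137265.14; chromosome 6, 391739 to 411447, plus strand), stood at 111, 115, 111 and 112 TPM, at rank 1255. Its coefficient of variation was 1.70%, against a median of 8.12% over expressed genes. MYC, the growth-driving transcription factor, read 470, 492, 526 and 493 TPM, at rank 279. IRF4 overlapped between the pairs, and the MYC values of shControl 2 and Vector 2 were nearly equal.

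FGFR3, a receptor tyrosine kinase that plasma cells normally lack (ENSG00000068078.18; chromosome 4, 1793293 to 1808872, plus strand), reached 1088, 1096, 1233 and 1232 TPM. With a mean of 1162 ± 81.0 TPM it ranked 136th of all genes. MAF, a basic leucine zipper transcription factor (ENSG00000178573.6; chromosome 16, 79585843 to 79600714, minus strand), stood at 116, 122, 166 and 178 TPM, at rank 960. Both were higher in the 2 Vector than in the 2 shControl libraries, and MAF had the largest coefficient of variation of the 6 markers, 21.6%.

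**Figure D2:**
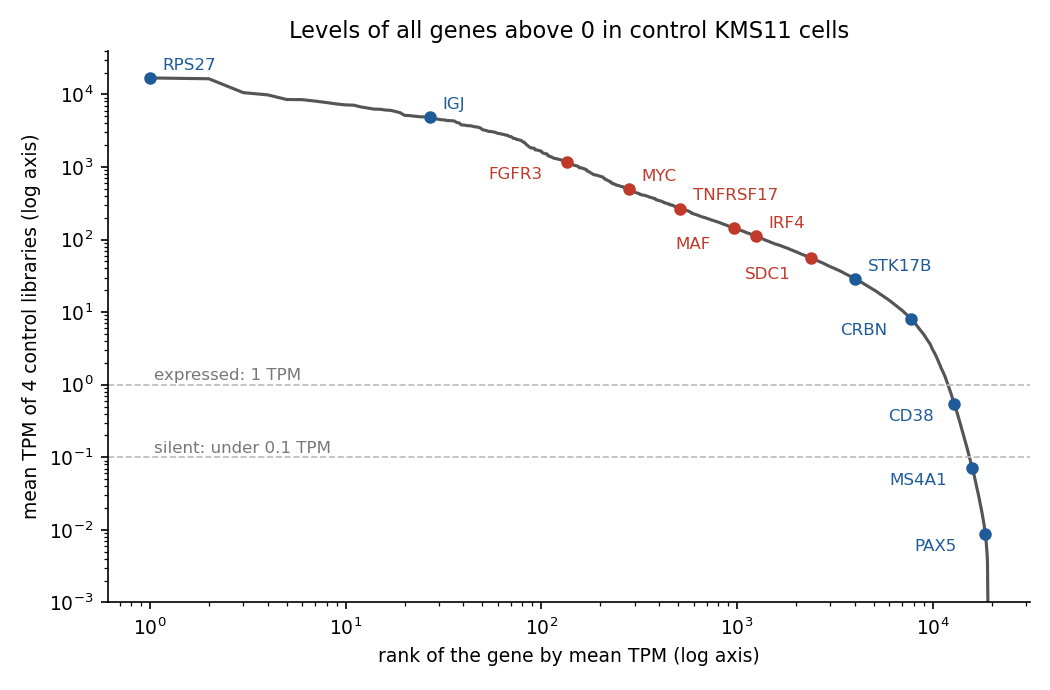
Mean TPM of the 4 control libraries (y axis, log) against the rank of the gene (x axis, log) for every gene above 0; red points are the 6 markers and blue points other genes described in the text (IGJ is the table's name for the J chain gene). FGFR3 ranks 136th and PAX5 lies below the silent line at 0.1 TPM.

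The plasma cell programme was present at high levels with gaps at the surface. Of 29 plasma cell genes 24 (82.8%) were expressed, against 54.6% of protein-coding genes and 38.2% of all genes. At 100 TPM or more stood 15 of them, and the median was 112 TPM. All 7 transcription and elongation factors were expressed. XBP1, which expands the endoplasmic reticulum (ER), stood at 1195 ± 89.2 TPM and POU2AF1, a coactivator at immunoglobulin promoters, at 265 ± 13.4 TPM. PRDM1, the repressor that closes the B cell programme, stood at 33.9 ± 3.20 TPM. ELL2, which acts in transcript elongation, stood at 27.3 TPM.

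All 10 secretory genes of the plasma cell list were expressed, with a median of 686 TPM. The J chain gene, which the table lists as IGJ and which encodes the peptide joining polymeric IgM and IgA, stood at 4827 ± 207 TPM and ranked 27th of all genes. TXNDC5, a disulfide isomerase, stood at 1429 ± 148 TPM, the translocon-associated SSR4 at 1308 ± 23.1 TPM and the survival kinase PIM2 at 1265 ± 60.2 TPM. MZB1, a chaperone for immunoglobulin assembly, stood at 542 ± 62.2 TPM. Of 16 immunoglobulin symbols searched, the table listed IGLL5 alone, at 478, 486, 319 and 304 TPM; the heavy and light chain constant genes were not analysed here. IGLL5 lies in the lambda light chain locus and can share reads with lambda constant segments. Its level was higher in both shControl libraries.

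At the surface, 7 of 12 plasma cell genes (58.3%) were expressed, a share near the 54.6% of protein-coding genes. CD320, a receptor for transcobalamin, stood at 271 ± 20.7 TPM, CD48 at 119 ± 2.81 TPM, TNFRSF13B (TACI, a second APRIL and BAFF receptor) at 115 ± 7.93 TPM and SLAMF7 at 18.1 ± 2.86 TPM. CD38, an ectoenzyme found on most plasma cells, read 0.462, 0.647, 0.422 and 0.617 TPM. GPRC5D read 1.04, 0.480, 0.963 and 0.605 TPM. FCRL5 and CD27 stood at 0.0777 and 0.0343 TPM. The surface set thus held members above 200 TPM beside members that did not reach 1 TPM in every library.

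B cell genes were largely low. Of 20 listed, 5 were expressed, 4 were silent and 11 lay between, with a median of 0.595 TPM. Among protein-coding genes 54.6% were expressed and 28.3% silent. The list thus held a smaller share of expressed genes than that class, but its share of silent genes was not larger. PAX5, the factor that fixes B cell identity, read 0.0086, 0.0174, 0.0089 and 0 TPM. MS4A1, which encodes CD20, stood at 0.0708 TPM. CD79B, a chain of the B cell receptor, was an exception at 69.7 ± 9.88 TPM, while its partner CD79A stood at 1.11 TPM. CIITA, the master regulator of MHC class II, stood at 53.7 ± 0.937 TPM and the ETS factor SPIB at 11.2 ± 0.984 TPM.

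Genes of other lineages were mostly below the level set for expression. Of 79 listed for T and NK, myeloid, erythroid and megakaryocytic, stromal and endothelial, epithelial and neural cells, 11 (13.9%) were expressed and 39 (49.4%) silent. The expressed share was 38.2% over all genes and 54.6% over protein-coding genes, and the silent share 43.8% and 28.3%. The median of the 79 was 0.0506 TPM. Their summed level ran from 256 to 362 TPM in the 4 libraries, of which CD7, an immunoglobulin-family receptor of T and NK cells, gave most with 139, 139, 231 and 218 TPM. CD7 was higher in both Vector libraries. CD28, a T cell costimulatory receptor that is also found on myeloma cells, stood at 48.0 ± 6.45 TPM, and the kinase ZAP70 at 27.6 ± 1.95 TPM. CD3E stood at 3.53 TPM, and CD3D, CD3G, CD5, GZMA and GZMB were listed at 0 in all 4 libraries.

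No erythroid or megakaryocytic gene of 12 was expressed. Of 15 myeloid genes CEBPA, a myeloid transcription factor, was expressed at 2.66 TPM, and of 15 stromal and endothelial genes PECAM1 at 4.66 TPM. Among 10 epithelial genes EPCAM (6.80 TPM), KRT18 (6.14 TPM) and ELF3 (2.56 TPM) were expressed, and among 10 neural genes SOX2 (11.3 TPM) and TUBB3 (2.61 TPM). The summed level of the lists ran from 0.315 to 1.41 TPM for erythroid and megakaryocytic genes and from 4.61 to 8.24 TPM for stroma and endothelium.

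**Figure D3:**
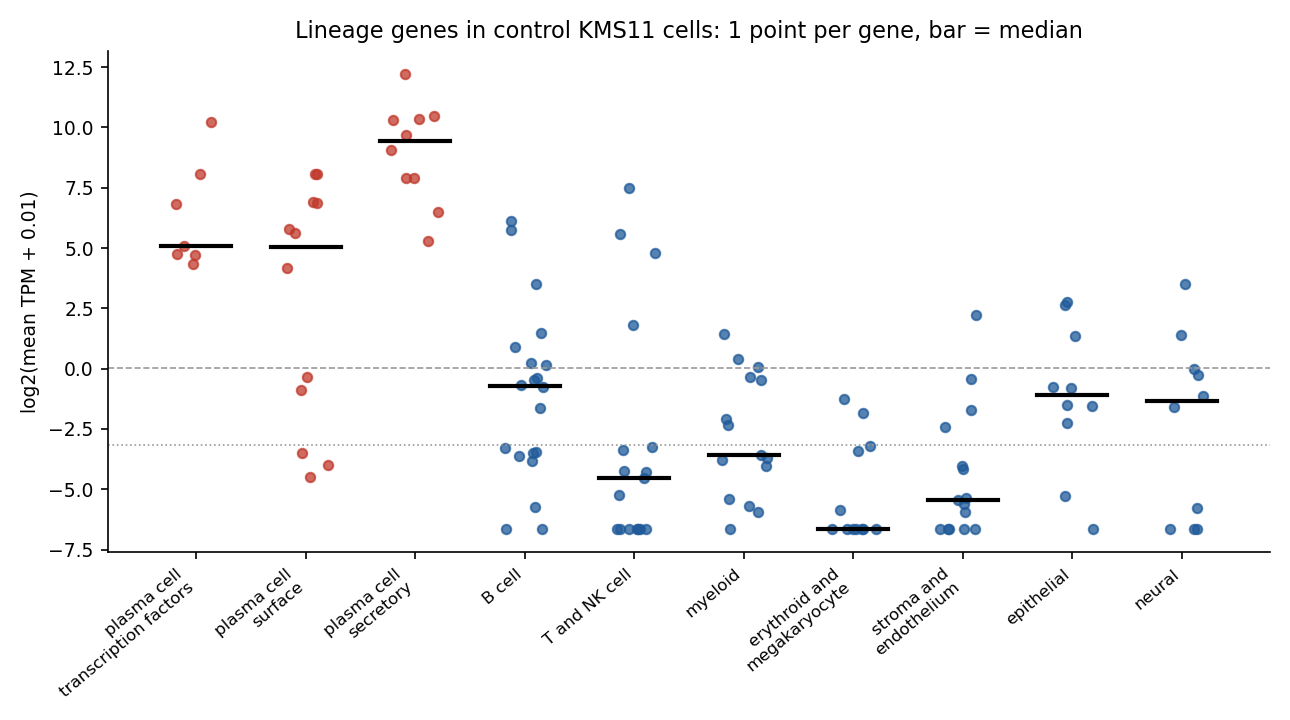
Mean level of each listed gene as log2(mean TPM + 0.01) (y axis) in 10 lineage lists (x axis); each point is a gene, the bar is the median, the dashed line is 1 TPM and the dotted line 0.1 TPM. The 3 plasma cell lists (red) have medians of 33.9, 33.4 and 686 TPM, and the other lists (blue) have medians below 1 TPM with CD7, CD79B, CIITA and CD28 above 40 TPM.

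Among oncogenes that myeloma translocations are known to target, a single member carried most of the RNA of its family. FGFR3 held 98.8% of the TPM of 5 FGF receptor genes, with FGFR2 next at 11.5 TPM. MAF held 99.3% of the large MAF factors, while MAFA stood at 0.129 TPM. MYC held 98.4% of its family, with MYCN at 4.67 TPM. NSD2, the histone methyltransferase beside FGFR3 that the table lists as WHSC1, read 146, 148, 159 and 165 TPM and held 89.6% of the NSD family. Of the D-type cyclins, CCND2 stood at 101 ± 4.53 TPM (70.8%), CCND3 at 39.3 ± 1.22 TPM and CCND1 at 2.14 ± 0.131 TPM. MAF is known to raise CCND2 and the integrin ITGB7 in myeloma. ITGB7 stood at 909, 877, 860 and 836 TPM or 90.8% of the integrin beta chains, and CCND2 read 100, 107, 96.3 and 99.2 TPM. Both were lower in the 2 Vector libraries, where MAF was higher, and a link to MAF was not tested.

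The genes around FGFR3 and MAF were set beside them by position in GENCODE 29. On chromosome 4, FGFR3 was flanked by TACC3 (193, 193, 177 and 171 TPM), a spindle protein, and by LETM1 (15.7, 15.9, 15.5 and 15.6 TPM), a mitochondrial ion carrier. Of the 8 protein-coding genes on each side, the most abundant were C4orf48 and SLBP, at 201 to 234 TPM and 177 to 229 TPM, so FGFR3 stood above all 16. On chromosome 16 the nearest genes to MAF were WWOX (13.2, 12.7, 13.5 and 11.3 TPM), an oxidoreductase, and DYNLRB2, which read 0.594, 0.916, 2.59 and 1.51 TPM. The long WWOX gene spans 78099413 to 79212667, with its far end 1486 kb from MAF at 79585843 to 79600714 and its other end much nearer. CMC2, a mitochondrial assembly factor further along, read 138 to 165 TPM, close to MAF itself.

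All 18 listed tumour suppressors were expressed, against 54.6% of protein-coding genes. CDKN2A, which encodes p16 and p14ARF, stood at 409, 412, 346 and 352 TPM, higher in both shControl libraries. CDKN2C, which encodes p18, stood at 132 ± 1.69 TPM and BIRC3, an inhibitor of non-canonical NF-kB signalling, at 113 ± 5.55 TPM. CDKN1A, which encodes p21, read 2.47, 1.64, 2.41 and 2.65 TPM, with shControl 2 the lowest. TRAF3, which restrains non-canonical NF-kB, stood at 11.7 ± 0.547 TPM, and among NF-kB subunits NFKB2 held 60.7%, at 257 TPM.

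**Figure D4:**
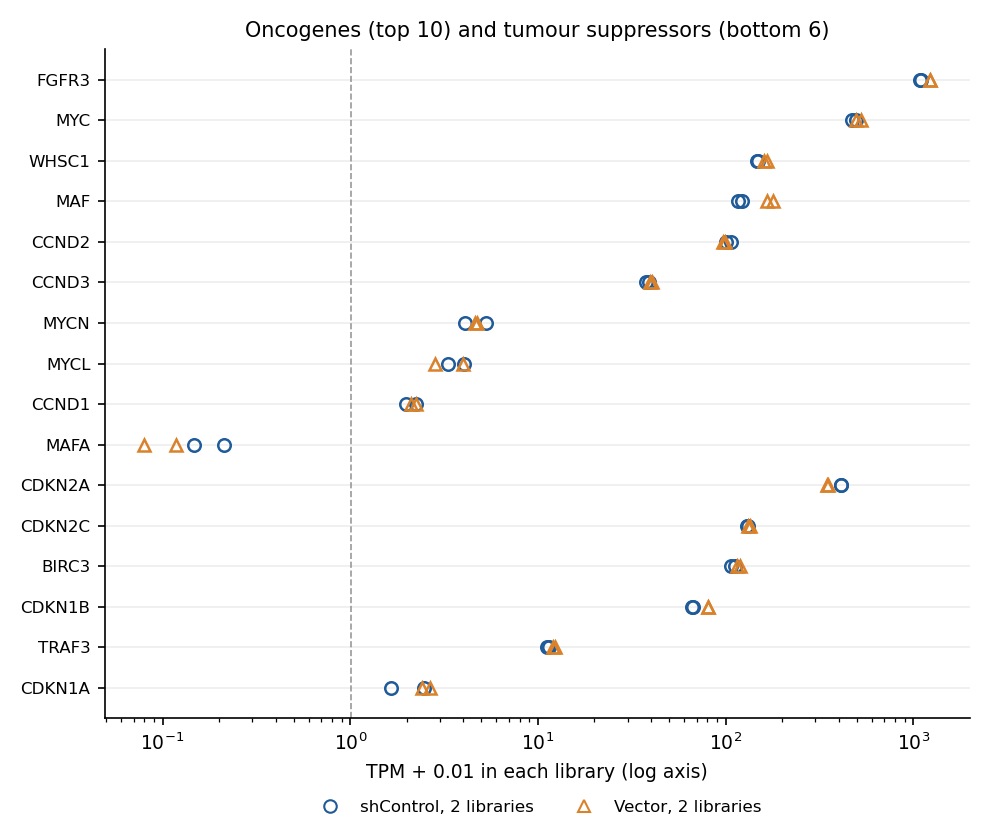
TPM + 0.01 in each library (x axis, log) for 10 oncogenes and 6 tumour suppressors (y axis; WHSC1 is NSD2); circles are the 2 shControl and triangles the 2 Vector libraries, and the dashed line is 1 TPM. FGFR3 and MYC lie furthest right among oncogenes, MAFA lies left of 1 TPM, and CDKN1A lies lowest among the suppressors.

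Of 39 receptor tyrosine kinase genes, 8 (20.5%) were expressed and 13 (33.3%) silent, against 54.6% and 28.3% of protein-coding genes. FGFR3 gave 1162 of their summed 1241 TPM. INSR (14.7 TPM), NTRK3 (12.1 TPM), FGFR2 (11.5 TPM) and ROR2 (10.7 TPM) came next. Of 23 RAS and MAPK pathway genes 19 (82.6%) were expressed, among them HRAS (43.2 TPM), NRAS (16.1 TPM) and the kinase MAP2K2 (205 TPM). The immediate response genes EGR1 and FOS stood at 0.0703 and 0.195 TPM, and DUSP6, a phosphatase induced by ERK, at 12.2 ± 0.844 TPM.

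Of 23 listed cytokine receptors 19 (82.6%) were expressed, against 54.6% of protein-coding genes. IL2RG, the common gamma chain, read 1274, 1278, 1560 and 1487 TPM, far above IFNAR2 (124 TPM) and the chemokine receptor CXCR4 (104 TPM), which keeps plasma cells in the marrow. IL6R and IL6ST, the receptor chains for the myeloma growth factor IL-6, stood at 25.9 ± 3.69 and 46.7 ± 10.7 TPM, while IL6 itself read 0, 0.0784, 0 and 0.165 TPM. Of 23 secreted factors 9 (39.1%) were expressed, a share below the 54.6% of protein-coding genes. The highest were TGFB1 (174 TPM), VEGFA (64.4 TPM), CCL5 (38.2 TPM), CXCL10 (31.2 TPM) and HGF (25.6 TPM). DKK1, a WNT antagonist linked to myeloma bone disease, stood at 0.164 TPM.

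MHC genes were among the most abundant. All 21 listed were expressed, against 54.6% of protein-coding genes, with a median of 346 TPM and 3.12% ± 0.273 of all TPM. HLA-B, an MHC class I heavy chain, stood at 2102 TPM and HLA-DRA, an MHC class II chain, at 3089 ± 51.6 TPM. HLA genes are highly variable and similar to each other, so reads can be lost or shared among them. Of 17 immune checkpoint and costimulatory ligands 11 (64.7%) were expressed, against 54.6% of protein-coding genes, with CD48 (119 TPM) and CD70 (75.4 TPM) highest. CD274, which encodes PD-L1, stood at 0.180 TPM and PVR at 0.00649 TPM.

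Targets of myeloma antibodies and cell therapies spanned the whole range. Of 16 listed, 9 (56.25%) were expressed, a share near the 54.6% of protein-coding genes. CD74 (8475 TPM), BSG (451 ± 17.3 TPM), TNFRSF17 (267 TPM) and CD48 (119 TPM) were the most abundant, CD46, CD70 and ICAM1 lay between 74.4 and 94.1 TPM, and SDC1 and SLAMF7 at the levels given above. CD38, GPRC5D, FCRL5, MS4A1, NCAM1 and CD200 had means below 1 TPM.

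Targets of small molecules were nearly all expressed, 42 of 44 (95.5%), against 54.6% of protein-coding genes. CRBN, the ubiquitin ligase subunit bound by lenalidomide and its relatives, read 8.25, 7.84, 8.07 and 8.25 TPM. Its substrates IKZF1 and IKZF3, which maintain IRF4 and MYC, stood at 7.37 ± 0.188 TPM and at 44.6, 45.3, 63.7 and 68.9 TPM. IKZF3 was higher in both Vector libraries, while CRBN and IKZF1 overlapped. IKZF3 held 76.7% of the Ikaros family.

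The proteasome core, the target of bortezomib, had 17 of 19 genes (89.5%) expressed, against 54.6% of protein-coding genes, with a median of 188 TPM. PSMB5, the subunit that bortezomib binds, read 131, 125, 113 and 106 TPM, and its immunoproteasome counterpart PSMB8 stood at 124 ± 6.09 TPM, or 51.1% of the PSMB5, PSMB8 and PSMB11 total. PSMB9 held 33.1% beside PSMB6, and PSMB10 held 37.6% beside PSMB7. XPO1, the nuclear exporter inhibited by selinexor, stood at 91.8 ± 1.44 TPM. NR3C1, the receptor for dexamethasone, read 17.2, 16.9, 24.1 and 25.3 TPM, higher in both Vector libraries.

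Among the survival members of the BCL2 family, BCL2L1 (163 ± 4.25 TPM, 51.3%) and MCL1 (140 ± 12.7 TPM, 43.8%) held most, and BCL2, the target of venetoclax, stood at 13.6 ± 0.730 TPM. Of 11 killers 9 (81.8%) were expressed, against 54.6% of protein-coding genes, led by BAX with 212, 209, 181 and 167 TPM. Of 8 drug efflux genes 4 were expressed. ABCC1 stood at 49.2 ± 0.881 TPM and ABCB1, which encodes P-glycoprotein, read 0, 0.0324, 0 and 0 TPM. BTK stood at 0.311 TPM.

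**Figure D5:**
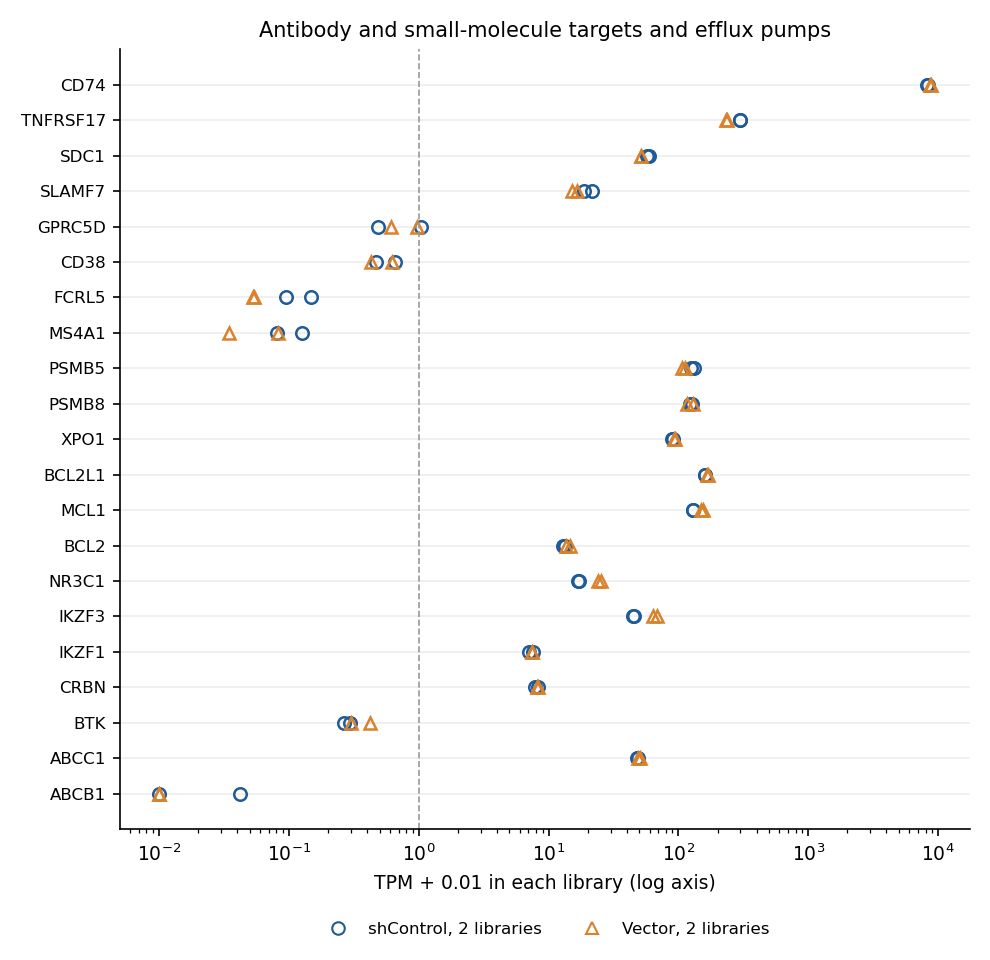
TPM + 0.01 in each library (x axis, log) for 21 drug targets and efflux pumps (y axis); circles are the 2 shControl and triangles the 2 Vector libraries, and the dashed line is 1 TPM. CD74 lies near 8475 TPM, and GPRC5D, CD38, FCRL5, MS4A1, BTK and ABCB1 lie around or left of 1 TPM.

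STK17B, the kinase under study, belongs to the death-associated protein kinase (DAPK) family and stood at 27.1, 27.4, 28.2 and 31.5 TPM in the controls, at rank 4021. Its closest relative STK17A stood at 34.7, 33.9, 30.7 and 29.3 TPM and DAPK3 at 41.9 ± 2.83 TPM. STK17B thus held 24.8% of the family's RNA, after DAPK3 with 36.4% and STK17A with 27.9%, and DAPK2 stood at 0.248 TPM.

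The study's title places STK17B in ferroptosis, an iron-dependent cell death by lipid peroxidation. Of 17 genes that defend against it, 16 (94.1%) were expressed, against 54.6% of protein-coding genes. GPX4, the enzyme that reduces lipid hydroperoxides, read 303, 302, 336 and 312 TPM and held 99.3% of the glutathione peroxidases, with GPX7 next at 1.58 TPM. SLC7A11, the cystine carrier of system xc-, read 0.546, 0.831, 0.509 and 0.627 TPM, while its partner SLC3A2 stood at 285 ± 5.45 TPM. Of 18 drivers 11 (61.1%) were expressed, a share near the 54.6% of protein-coding genes. Among them were the transferrin receptor TFRC (193 TPM) and the acyl-CoA synthetase ACSL4 (17.7 TPM), while ALOX12B, ALOX15B, ALOXE3, NOX1 and NOX4 were listed at 0. Of 22 iron genes 16 (72.7%) were expressed, against 54.6% of protein-coding genes, led by the ferritin chains FTH1 (1321 TPM) and FTL (1106 TPM).

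The listed secretory genes were all expressed, against 54.6% of protein-coding genes. All 20 ER folding genes and all 20 translocation genes reached 1 TPM in every library, with medians of 202 and 131 TPM. CALR, a calcium-binding chaperone, stood at 1813 ± 99.3 TPM, PPIB at 1722 TPM, HSP90B1 at 1115 TPM and HSPA5 (BiP) at 340 ± 2.53 TPM. Of the 12 regulators of the unfolded protein response, all were expressed. ATF4, a stress-induced transcription factor, read 674, 683, 670 and 637 TPM, and the sensors ERN1, EIF2AK3 and ATF6 at 7.58, 16.8 and 21.8 TPM.

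The listed growth genes were also all expressed, against 54.6% of protein-coding genes. All 24 cell cycle genes were expressed with a median of 113 TPM, led by TYMS (375 TPM), PCNA (279 TPM) and MCM7 (229 TPM), and MKI67 stood at 77.1 TPM. All 20 genes of the MYC and ribosome biogenesis list were expressed with a median of 179 TPM, led by NPM1 (1332 TPM), LDHA (1065 TPM) and NCL (959 TPM).

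The libraries differed little for most genes. The median coefficient of variation was 12.3% for genes of 1 to 10 TPM and 5.28% for genes of at least 100 TPM. The highest library exceeded the lowest by over 2-fold in 345 (3.05%) of the expressed genes and by over 4-fold in 18. The widest ranges among genes averaging at least 10 TPM belonged mostly to short RNAs. MIR210 read 94.1, 15.6, 0 and 0 TPM and SNORD12B 0, 0, 48.0 and 47.7 TPM. The libraries were poly(A)-selected, and correction for a short length raises TPM, so few reads may lie behind such values. No gene typed as miRNA reached 1 TPM in all 4 libraries.

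The protein-coding genes with the widest ranges, picked for that range, included the following. DBP, a clock output factor, read 8.10, 8.01, 33.6 and 33.6 TPM. HSPA1B, an inducible heat shock chaperone, read 34.6, 32.8, 115 and 114 TPM. HSPA1A read 9.68, 6.94, 23.4 and 23.2 TPM; the 2 genes are near-identical and their reads can be shared. S100A4, a calcium-binding protein, read 101, 91.3, 228 and 222 TPM. These genes were higher in both Vector libraries, as were 49.1% of expressed genes.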

How the data were processed

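Poly(A)-selected, stranded RNA libraries were sequenced on DNBSEQ, per the labels' protocols. The authors deposited 1 TPM value per gene and library, without counts. The genome build GRCh38.p13 and the tools RSEM 1.3.1, Bowtie2 2.3.4.3, HISAT and, from the authors, DESeq2 1.4.5 come from the submitters' processing notes, which were given without roles. The 4 control columns were used and 8 other sample columns were not. Means, SDs (pseudocount 1 for log2), ranks, counts of expressed and silent genes and shares were computed with Python 3.11.15, pandas 2.3.3 and numpy 2.4.6; no test was run. The spread calculation was tested on simulated data. Symbols were matched to GENCODE 29 (23633 matched) or RefSeq, directly or by a synonym, for type and position; unmatched genes held 0.369% of TPM.

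The 39 lists and 44 families were chosen with earlier results of these data known. Genes named are the 6 markers, the 25 most abundant, up to 6 of the highest and 6 silent members of each list, the first 2 of each family, the 10 widest-ranging of at least 10 TPM (all and protein-coding) and a panel of 24. Further list members, and the neighbours of FGFR3 and MAF, were named after values were seen. A few of these genes are not reported here. Alternatives were other thresholds, pseudocounts, scalings and leaving out each library.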

Additional observations from a re-analysis of the deposited data

How the results depend on the processing

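With all alternatives run, 82 of 93 planned values moved by less than the spread between libraries or, for counts, stayed within 1.5 times. For a marker's mean TPM that spread was the SD of the same libraries. Leaving out a library or taking the median cannot move such a mean by more than its SD. Those checks could not fail, so they say nothing about robustness although the tally includes them. Leaving out a library was nearly as limited a check for the share of the 100 most abundant genes. The 24 expressed plasma cell genes numbered 24 under each threshold, scaling and left-out library. The expressed genes ranged from 8551 (5 TPM) to 12218 (0.5 TPM). At 5 TPM 5 genes of other lineages were expressed in place of 11. The 100 most abundant genes' 40.9% of TPM became 28.9% for 50 genes, 51.6% for 200 and 41.5% of protein-coding TPM. The median SD of log2(TPM + 1) over expressed genes, 0.105, became 0.051 with no filter on low values and 0.056 pooled within the pairs. With the shControl or Vector libraries alone, alternatives chosen after seeing the data, it was 0.041 and 0.049, and MAF averaged 119 and 172 TPM. Leaving the 20 most abundant genes out of the scale raised FGFR3 from 1162 to 1388 TPM and TNFRSF17 from 267 to 318 TPM. No paired analysis was possible because no comparison was tested. Groups of 2 were too small for the check of single outlying libraries. Depth is unknown, so no interval or detection limit was given, and a value of 0 says only that a gene was listed at 0. TPM levels are shares, not amounts per cell.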

Other observations

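Glycolytic enzymes were among the most abundant genes and several steps were dominated by a single isoform. ENO1 stood at 3080 TPM (99.5% of the enolases), PKM at 2893 TPM and ALDOA at 2632 TPM (94.6% of the aldolases). HK2, the hexokinase common in tumours, held 83.5% of its family at 44.9 TPM. LDHA and LDHB were close to equal, with 53.5% and 46.5%. Among glucose transporters SLC2A8 (68.4 TPM) stood above the widely expressed SLC2A1 (30.5 TPM). GPX1, which most tissues express, stood at 0.653 TPM.

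Cancer-testis genes, which are normally kept to the germ line, were split. Of 30 measured, 25 (83.3%) were silent, against 28.3% of protein-coding genes, most MAGE, SSX and GAGE genes among them. In contrast, CTAG2 read 680, 679, 581 and 588 TPM and PRAME 55.7, 54.6, 83.8 and 79.2 TPM. CTAG1A stood at 34.3 ± 2.40 TPM and has a near-identical copy with which reads can be shared. Among 25 long noncoding RNAs 18 (72.0%) were expressed, against 38.2% of all genes. Over all genes typed as lncRNA, lincRNA or processed transcript the share was 7.53%, 10.1% and 27.1%. The list was chosen with earlier results known, so its count does not describe the class. SNHG5, a snoRNA host, led with 619 ± 32.4 TPM. NEAT1, the scaffold of nuclear paraspeckles, read 76.2, 85.9, 213 and 242 TPM and MALAT1 14.8, 16.9, 29.9 and 34.5 TPM, both higher in the 2 Vector libraries. Of 18 genes of the hypoxia response 14 (77.8%) were expressed, against 54.6% of protein-coding genes. DDIT4 (292 TPM) and NDRG1 (116 TPM) were the highest.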
